A study of Mus musculus with 2 samples.

Results

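Nuclear factor kappa B (NF-kB) is the transcription factor family that many immune receptors activate. This account follows 10 of its genes through single-nucleus RNA data from the hippocampus of 5XFAD mice. They are the 5 subunit genes Nfkb1, Nfkb2, Rel, Rela and Relb, the inhibitor of kappa B (IkB) genes Nfkbia, Nfkbib and Nfkbiz, the ubiquitin-editing enzyme gene Tnfaip3 (A20), and Ikbkb, which encodes the kinase IKK-beta. They were taken by symbol from the gene list of the files, 10 of 32285 genes, and all 10 were found.

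The subunits bind DNA as pairs. In resting cells IkB proteins hold them in the cytoplasm. Signals from receptors for cytokines and microbial products activate the IKK complex, which marks the IkB proteins for degradation, and the freed pairs enter the nucleus. Their targets include Nfkbia and Tnfaip3, whose products then dampen the signal. The p100 product of Nfkb2 and its partner RelB belong to a slower branch of the pathway. In the brain the pathway is best known for its part in microglial inflammation, and neurons and astrocytes use it too.

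The library labelled MR1 knockout came from 5XFAD x MR1 KO mice and the other library from 5XFAD mice. MR1 shows microbial vitamin metabolites to mucosal-associated invariant T cells. All mice were 8 months old and carried 5XFAD, transgenes for mutant human amyloid precursor protein and presenilin 1 that the neuronal Thy1 promoter drives, and no mouse without 5XFAD was included. Each library pooled 1 male and 1 female mouse. With 1 library for each label there was no test between them, and every interval below is a 95% interval for counting error only, which does not cover differences between animals or preparations.

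After the filters on genes detected (at least 500) and mitochondrial RNA (under 5% of unique molecular identifiers, UMIs) and the removal of doublets, 17168 nuclei were kept in the library labelled MR1 knockout and 12034 in the 5XFAD library. They held 56228090 and 56352699 UMIs. The libraries shared 182 cell barcodes among 26212 and 25238. RNA of Mr1 itself did not follow the label, with 67 UMIs in the library labelled MR1 knockout and 33 in the 5XFAD library. In microglia it had 7 and 6 UMIs, a ratio of 0.516 (0.149 to 1.86). These counts do not settle the genotype. The make-up also differed. Striatal medium spiny neurons numbered 5 nuclei in the library labelled MR1 knockout and 1144 in the 5XFAD library, and choroid plexus epithelial cells 94 and 1. Of the dentate granule nuclei, cluster 22 held 3231 and 295 and cluster 14 held 955 and 1176. Among clusters left without a name, cluster 4, led by Smoc1 and Otof, held 1674 and 7 nuclei. Cluster 2 held 693 and 26, and cluster 13 held 29 and 663. These unnamed nuclei count in the values over all kept nuclei. Fewer cells of a type and less RNA per cell cannot be told apart in values over all nuclei.

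Cell classes were rebuilt by clustering and named from marker genes, so each name stands for nuclei that look like that type, for example microglia-like nuclei. None of the 10 genes was among the 2500 variable genes that built the clusters. The clusters were still made from these same nuclei, so levels by class are a description without a test. Levels are UMI counts scaled to the total UMIs of a class (CPM). CPM is not compared between genes, since nuclear transcripts are also caught along their introns and these genes differ in length, with 107 kb for Nfkb1 on chromosome 3 and 3.24 kb for Nfkbia on chromosome 12. In mm10 (GENCODE M21) the subunit genes lie at chr3:135584655-135691547 (Nfkb1), chr19:46304320-46312385 (Nfkb2), chr11:23736847-23770970 (Rel), chr19:5637483-5648130 (Rela) and chr7:19606217-19629438 (Relb). The other genes lie at chr12:55489410-55492647 (Nfkbia), chr7:28758251-28767512 (Nfkbib), chr16:55811375-55838899 (Nfkbiz), chr10:19000910-19015657 (Tnfaip3) and chr8:22659212-22706589 (Ikbkb).

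Some of these genes are known as targets of the pathway as well as parts of it, so their promoter DNA is shown. RefSeq windows of 300 bases round the transcription start (GRCm38.p6) were at hand for 6 of the 10 genes. The 10-letter kappaB consensus was searched on both strands, where letters that match on both strands count on each. It was found in the windows of 4 of the 6 genes, Nfkbia, Rel, Nfkb2 and Tnfaip3, against 5.14% of the 27025 genes with a window. The windows of Rela and Nfkbib held no match, which says only that these letters are not in them. A match is a run of letters and not a measured binding site. In the sequences, printed 5′ to 3′ on the strand of the gene, capitals mark the matches. The first is the upstream region of Nfkbia at chr12:55492648-55492897 (minus strand), with 1 match that begins at position -29 before the start.
Nfkbia: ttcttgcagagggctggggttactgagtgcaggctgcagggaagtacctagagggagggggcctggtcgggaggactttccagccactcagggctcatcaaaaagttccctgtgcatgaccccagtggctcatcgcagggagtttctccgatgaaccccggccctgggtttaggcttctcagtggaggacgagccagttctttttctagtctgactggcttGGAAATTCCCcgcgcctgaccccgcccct
The upstream region of Rel at chr11:23770971-23771219 (minus strand) held 1 stretch from position -92, with 3 overlapping matches, 1 on the strand of the gene and 2 on the other strand.
Rel: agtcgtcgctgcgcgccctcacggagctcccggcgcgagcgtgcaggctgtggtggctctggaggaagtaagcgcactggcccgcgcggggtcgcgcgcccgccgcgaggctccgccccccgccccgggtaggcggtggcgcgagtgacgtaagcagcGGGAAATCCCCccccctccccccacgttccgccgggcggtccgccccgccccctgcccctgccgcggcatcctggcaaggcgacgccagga
For Nfkb2 (plus strand) and Tnfaip3 (minus strand), other annotated transcripts begin further upstream, so only short stretches of 1 window of each are shown. The window of Nfkb2 held 4 matches in 2 stretches, of which 3 overlap in the first, and that of Tnfaip3 held 2 matches. Nfkb2 windows at 2 later starts overlap each other and held 2 matches and 1 match, not shown, where the match of the last window is also 1 of those in the other. The stretches shown lie at chr19:46304688-46304717, chr19:46304709-46304736, chr10:19015516-19015545 and chr10:19015411-19015440.
Nfkb2, first stretch: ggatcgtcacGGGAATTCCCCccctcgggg
Nfkb2, second stretch: ccctcggggggccgaaaGGGGCTTTCCc
Tnfaip3, first stretch: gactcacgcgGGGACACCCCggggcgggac
Tnfaip3, second stretch: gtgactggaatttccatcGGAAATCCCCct

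In the comparison of the 9 classes that reached 200 nuclei in both libraries, microglia held the highest mean level of 9 of the 10 genes, and astrocytes that of Nfkbia. The summed level of the 10 genes was 430 CPM in microglia of the library labelled MR1 knockout and 516 CPM in those of the 5XFAD library. Astrocytes came next with 213 and 178 CPM, and the other classes lay between 120 and 181 CPM. Microglia stood apart from the next class in both libraries, with intervals that did not overlap, for the sum, Nfkb1 and Rel only. No other pair of neighbours in the order of any gene was separated in this way. Nfkb1 and Ikbkb made up 60.8% and 59.2% of the summed UMIs, so the sum mainly follows these genes.

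**Figure D1:**
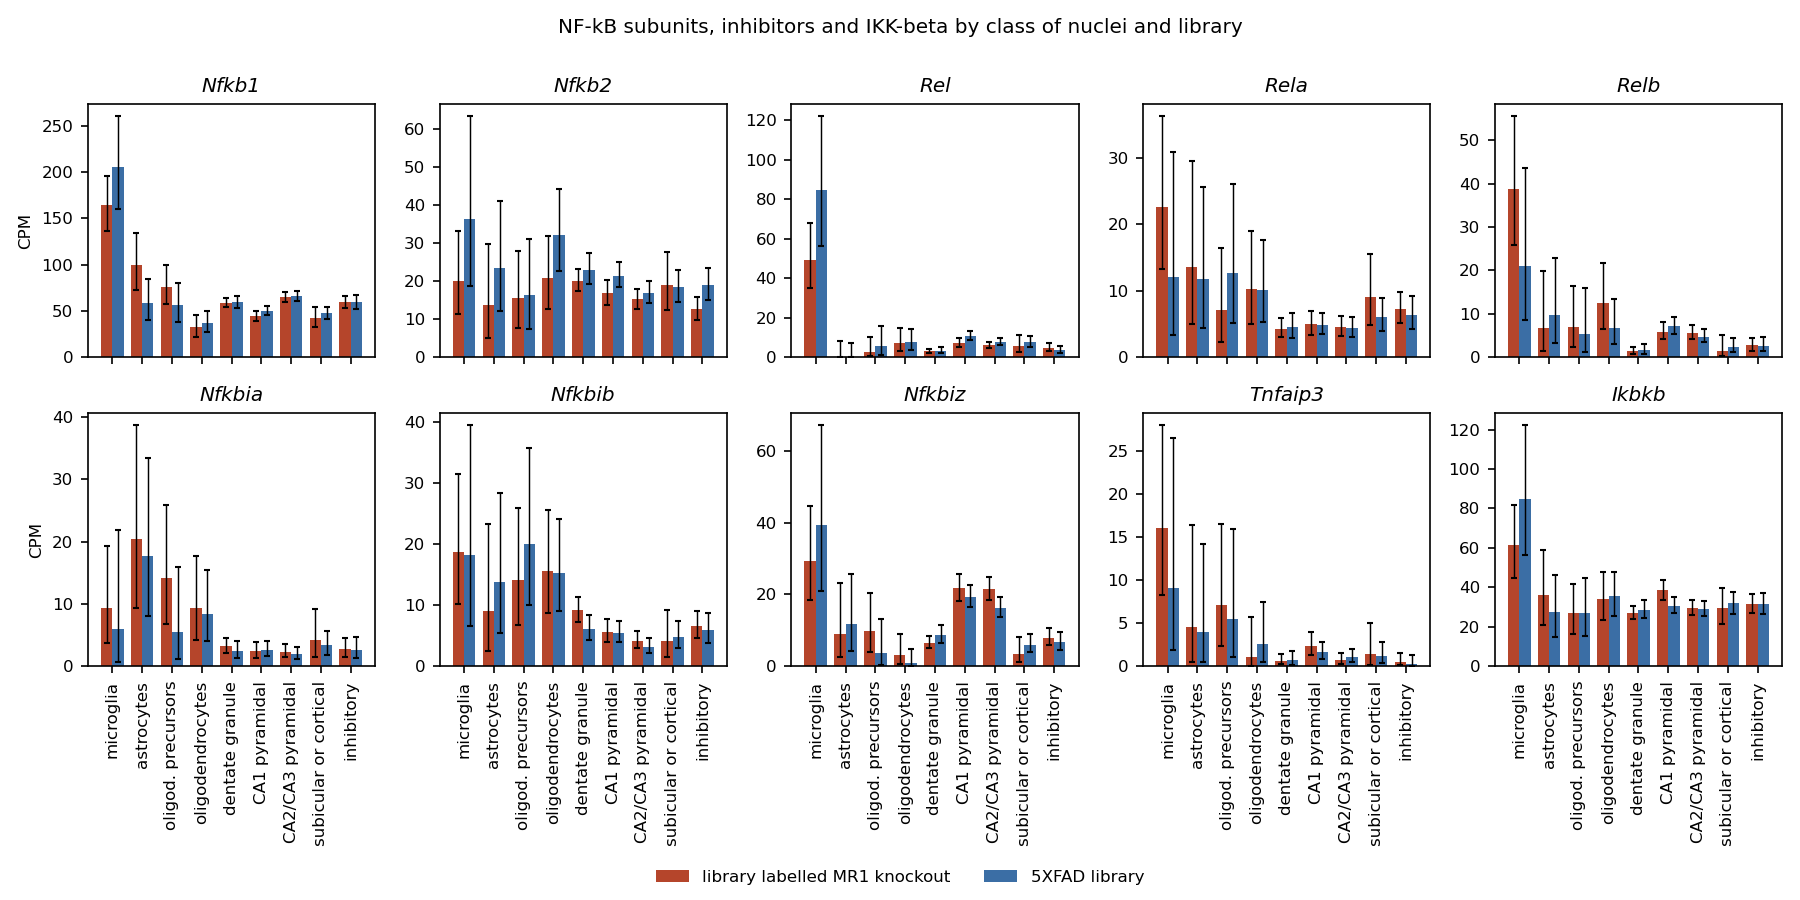
Level of each gene in CPM (vertical axis, linear, scaled per gene) in the 9 compared classes; red bars are the library labelled MR1 knockout, blue bars the 5XFAD library, and error bars exact Poisson 95% intervals. Nfkb1 and Rel are highest in microglia in both libraries, Rel has no UMI in astrocytes, and Nfkbiz is higher in CA1 and CA2/CA3 pyramidal neurons than in the other neurons.

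Nfkb1, whose product p105 is cut to the subunit p50, was read in every class. It stood at 164 CPM (123 UMIs) in microglia of the library labelled MR1 knockout and at 205 CPM (68 UMIs) in those of the 5XFAD library. Astrocytes followed at 99.7 and 58.8 CPM, then oligodendrocyte precursors at 76.2 and 56.2 CPM. The neurons formed a narrow band, with CA2/CA3 pyramidal neurons at 65.0 and 66.1 CPM, inhibitory neurons at 59.2 and 59.0 CPM and dentate granule neurons at 58.6 and 59.1 CPM. Lower values were seen in CA1 pyramidal neurons, at 44.0 and 50.2 CPM, and in subicular or cortical excitatory neurons, at 42.0 and 47.2 CPM. Oligodendrocytes were lowest, at 32.0 and 37.1 CPM. Microglia exceeded all other kept nuclei in each of the 4 mice, by 3.21-fold to 4.46-fold.

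Rel encodes c-Rel, a subunit best known from lymphocytes and myeloid cells, and had the sharpest split between classes. It stood at 49.4 CPM (37 UMIs) in microglia of the library labelled MR1 knockout and at 84.5 CPM (28 UMIs) in those of the 5XFAD library. No other of the 9 compared classes passed 10.8 CPM, and astrocytes had 0 UMIs in both libraries. In the small classes, Rel had 46.7 CPM (7 UMIs) in 90 committed oligodendrocyte precursors and 34.6 CPM (5 UMIs) in 89 endothelial and mural nuclei of the library labelled MR1 knockout, against 0 UMIs in the 32 and 29 nuclei of the 5XFAD library. Against a floor of 3 counts per library, microglia were at least 7.27-fold higher than astrocytes in the library labelled MR1 knockout and at least 14.4-fold higher in the 5XFAD library. Microglia exceeded all other kept nuclei by 10.5-fold to 14.5-fold in the 4 mice. With each nucleus thinned to 750 UMIs, Rel was seen in 3.61% of 554 microglia of the library labelled MR1 knockout and in 6.48% of 216 of the 5XFAD library. Before thinning it was seen in 4.68% of 748 and 10.9% of 238 microglia, with medians of 894 and 1278 UMIs. In astrocytes 0 of 234 and 0 of 246 thinned nuclei had a Rel UMI, and a floor of 3 counts puts the share of nuclei with a UMI at up to 1.28% and 1.22%, which is no limit on nuclei that express the gene. Neuronal Rel was highest in CA1 pyramidal neurons at 7.33 and 10.8 CPM and lowest in dentate granule neurons at 2.90 and 3.11 CPM.

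Rela encodes p65, the subunit that activates most classical targets. Its levels were 22.7 CPM (17 UMIs) in microglia of the library labelled MR1 knockout and 12.1 CPM (4 UMIs) in those of the 5XFAD library. Astrocytes had 13.6 and 11.8 CPM and oligodendrocytes 10.3 and 10.1 CPM. The neuronal classes ran from 4.29 CPM in dentate granule neurons to 9.10 CPM in subicular or cortical neurons in the library labelled MR1 knockout, and from 4.39 CPM in CA2/CA3 pyramidal neurons to 6.38 CPM in inhibitory neurons in the 5XFAD library. All glial values but those of precursors in the library labelled MR1 knockout, at 7.06 CPM, lay above the highest neuronal value of their library, on small counts.

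Relb and Nfkb2 encode the pair of the slower branch, and their patterns across classes were unlike. Relb had 38.7 CPM (29 UMIs) in microglia of the library labelled MR1 knockout and 21.1 CPM (7 UMIs) in those of the 5XFAD library, against 1.39 and 1.56 CPM in dentate granule neurons. Nfkb2 spanned a narrower range. It had 20.0 CPM (15 UMIs) and 36.2 CPM (12 UMIs) in microglia, 20.7 and 32.1 CPM in oligodendrocytes and 20.1 and 23.0 CPM in dentate granule neurons. Its lowest values were 12.5 CPM in inhibitory neurons of the library labelled MR1 knockout and 16.3 CPM in oligodendrocyte precursors of the 5XFAD library.

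Among the inhibitors, Nfkbia (IkB-alpha), the fastest of the feedback targets, was the one with its highest mean outside microglia. Astrocytes had 20.4 and 17.6 CPM (9 UMIs in each library), and exceeded all other kept nuclei in 4 of 4 mice, by 5.56-fold to 9.85-fold. Each of these folds rests on only part of the 9 UMIs of its library. The astrocytes assigned to a mouse numbered 104 female and 35 male in the library labelled MR1 knockout. In the 5XFAD library they numbered 76 and 69. Microglia had 9.35 and 6.04 CPM, on 7 and 2 UMIs. The neuronal classes had 2.31 to 4.20 CPM in the library labelled MR1 knockout and 1.90 to 3.37 CPM in the 5XFAD library. The small class of endothelial and mural cells had 34.6 CPM in its 89 nuclei of the library labelled MR1 knockout (5 UMIs). Nfkbib (IkB-beta) had 18.7 and 18.1 CPM in microglia, 14.1 and 19.9 CPM in oligodendrocyte precursors and 15.5 and 15.2 CPM in oligodendrocytes, and 3.21 to 9.12 CPM over the neuronal classes of both libraries. Astrocytes had 9.07 CPM (4 UMIs) and 13.7 CPM (7 UMIs), so the glial and neuronal ranges overlapped.

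Nfkbiz encodes IkB-zeta, a nuclear IkB protein that helps p50 at a subset of targets, and Relb and Rel shared its pattern among the principal neurons of the hippocampus. Nfkbiz stood at 21.7 and 19.4 CPM in CA1 pyramidal neurons and at 21.5 and 16.3 CPM in CA2/CA3 pyramidal neurons. Dentate granule neurons had 6.54 and 8.65 CPM, inhibitory neurons 7.99 and 6.61 CPM and subicular or cortical neurons 3.50 and 6.03 CPM. CA1 pyramidal neurons thus had 3.31 times (2.43 to 4.56) the dentate granule level in the library labelled MR1 knockout and 2.24 times (1.62 to 3.15) in the 5XFAD library. Microglia had 29.4 CPM (22 UMIs) and 39.2 CPM (13 UMIs).

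The order held in each mouse, told apart by Xist and Y-linked RNA. In the library labelled MR1 knockout, Nfkbiz had 23.4 CPM in CA1 and 6.30 CPM in dentate granule neurons of the female mouse, and 23.0 and 7.22 CPM in those of the male mouse. In the 5XFAD library the values were 15 and 8.41 CPM in the female mouse and 26.7 and 11.8 CPM in the male mouse. Relb was 4.23 times (2.20 to 8.67) as high in CA1 as in dentate granule neurons in the library labelled MR1 knockout and 4.58 times (2.25 to 10.5) in the 5XFAD library. Rel was 2.53 times (1.54 to 4.23) and 3.46 times (2.06 to 6.11) as high. For all 3 genes the CA1 level and the CA2/CA3 level lay above the dentate granule level in 4 of 4 mice. The male 5XFAD mouse had only 133 dentate granule nuclei, so its levels there rest on few UMIs, with none of Relb. Nfkb2 ran the other way, with the CA1 level at 0.506 to 0.871 times the dentate granule level in the 4 mice. Nfkb1 in CA1 was at 0.667 to 0.797 times that level. The 2 mice of a library shared a capture, so these are not 4 independent replicates. In dentate granule cluster 14, Nfkbiz had 5.75 and 9.32 CPM, and in cluster 22 it had 6.91 and 3.17 CPM (44 and 2 UMIs), so both clusters lay below CA1 in both libraries.

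**Figure D2:**
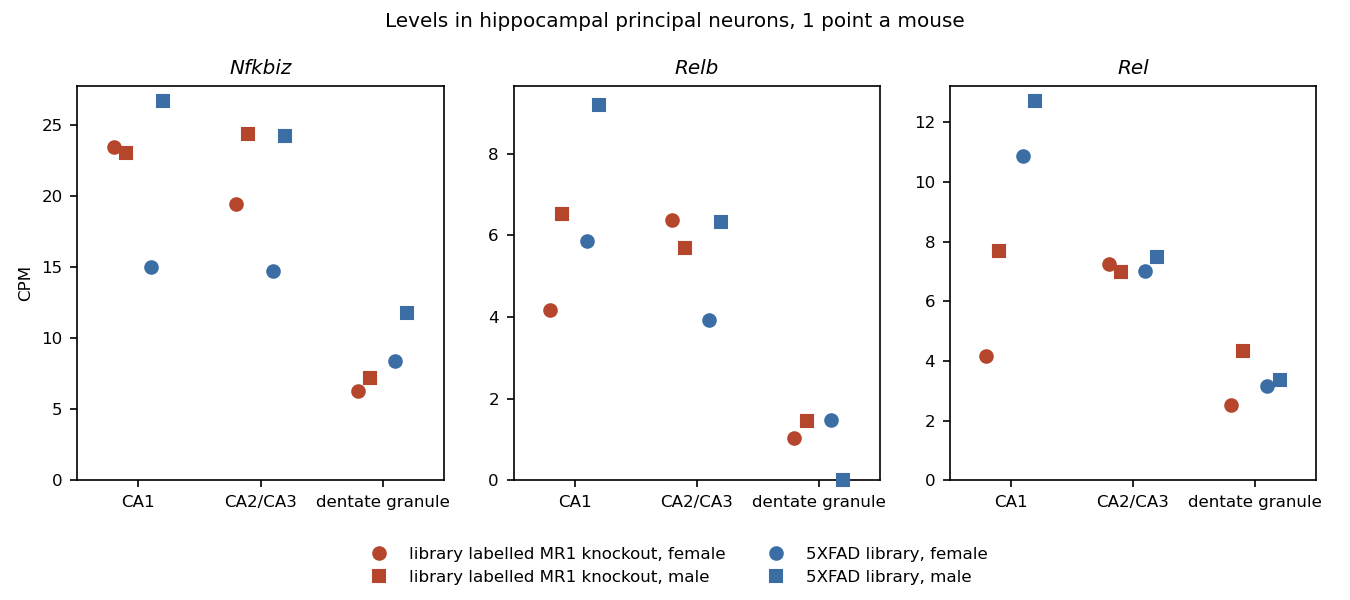
Level of Nfkbiz, Relb and Rel in CPM (vertical axis) in 3 classes of hippocampal principal neurons, with 1 point for each mouse; red is the library labelled MR1 knockout, blue the 5XFAD library, circles female and squares male mice. For each gene every mouse lies higher in CA1 and in CA2/CA3 than in its own dentate granule neurons; the male 5XFAD mouse has no Relb UMI in dentate granule neurons.

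Tnfaip3 was the scarcest of the 10 genes, with 79 UMIs in all kept nuclei of the library labelled MR1 knockout and 80 in those of the 5XFAD library. It stood at 16.0 CPM (12 UMIs) and 9.06 CPM (3 UMIs) in microglia and at 7.06 and 5.44 CPM in oligodendrocyte precursors. Its values in the other 7 classes were 4.53 CPM or less. Ikbkb, the kinase, stood at 61.4 CPM (46 UMIs) and 84.5 CPM (28 UMIs) in microglia, or 2.03 times (1.48 to 2.72) and 2.74 times (1.81 to 3.97) the level of all other kept nuclei. It was even across the other 8 compared classes, within 26.8 to 38.4 CPM in both libraries. In the small class of endothelial and mural cells it had 55.4 and 71.8 CPM, on 8 and 4 UMIs.

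Which genes shared these patterns was read as Pearson's r of log2(CPM + 1) over 18 points, 9 classes in each of the libraries, among 15050 genes. The points share libraries and differ in depth, and the values are descriptions. The summed level was most like Abi3 (r = 0.968), Klhl6 (0.965), Rcbtb2 (0.965), Samsn1 (0.962) and Itgam (0.960), the last of these an integrin subunit of myeloid cells. Adap2os, Traf3ip3, Nckap1l, Lilrb4a and Abhd12 followed, down to 0.953. Nfkb1 was most like Samsn1 (0.937), Rel like Ssh2 (0.950), Relb like Pepd (0.901) and Rela like Nfe2l2 (0.925). Nfkbia was most like Fxyd1 (0.944), Nfkbib like Dek (0.972), Nfkbiz like Msrb2 (0.888), Nfkb2 like Nudt16 (0.839) and Ikbkb like Wdr26 (0.950). Nfkb2 and Nfkbiz had the lowest best matches. Relb also matched H2-DMa (0.881), an antigen presentation gene.

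Between the libraries, over all kept nuclei, the summed level was 136 CPM in the library labelled MR1 knockout and 144 CPM in the 5XFAD library, a ratio of 0.946 (0.917 to 0.977). Over the nuclei of the 9 compared classes alone, without the unnamed clusters, the summed ratio was 1.01 (0.968 to 1.05). None of the 10 genes passed a 1.5-fold difference, where 8.72% of 18614 genes with at least 50 UMIs passed it as higher and 3.18% as lower. Of the 10, 5 were higher and 5 lower in the library labelled MR1 knockout, and under trimmed-mean scaling 2 were higher and 8 lower, with Nfkb2 past 1.5-fold as lower. Their median log2 ratio was 0.02, beside 0.13 over all genes. Scaling by trimmed means lowered every log2 ratio over all nuclei by 0.13 (a shift of -0.13), so a ratio near 1 has no direction that is free of the scaling.

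Nfkb2 had the lowest ratio. It had 854 UMIs (15.2 CPM) in the library labelled MR1 knockout and 1199 UMIs (21.3 CPM) in the 5XFAD library, a ratio of 0.714 (0.653 to 0.780). In the nuclei assigned to a mouse its level was 13.6 CPM in the female and 15 CPM in the male of the library labelled MR1 knockout. It was 18.1 CPM in the female and 21.9 CPM in the male of the 5XFAD library, so as point values both 5XFAD mice lay above the others. Within classes it was lower in 8 of 9, of which 5 had at least 50 UMIs. The ratio was 0.663 (0.473 to 0.926) in inhibitory neurons, which is past 1.5-fold lower with 1.83% of genes there, and 0.644 (0.355 to 1.14) in oligodendrocytes, with 3.29%. It was 0.782 (0.607 to 1.00) in CA1, 0.872 (0.695 to 1.10) in dentate granule and 0.898 (0.702 to 1.15) in CA2/CA3 neurons. In subicular or cortical neurons it was 1.03 (0.639 to 1.62). Striatal neurons, nearly all in the 5XFAD library, had 29.6 CPM there, and without them the ratio was 0.738 (0.674 to 0.809). Of those assigned to a mouse there, 699 were male and 4 female, so they enter mainly the value of the male 5XFAD mouse. No level per mouse without them is given. Compared class by class over the 9 classes, the ratio was 0.814. On the opposite strand the gene overlaps AC114539.1 by 1292 bases and Psd by 299 bases, and the strand setting of the counting is not given in the sources used here. AC114539.1 had 65 and 110 UMIs and Psd 3099 and 3540. Their part in the ratio was not tested.

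Rel was lower too, with 312 UMIs (5.55 CPM) in the library labelled MR1 knockout and 400 UMIs (7.10 CPM) in the 5XFAD library, a ratio of 0.782 (0.672 to 0.909). The female mice gave 4.65 CPM in the library labelled MR1 knockout and 6.55 CPM in the 5XFAD library, and the male mice 6.64 and 7.15 CPM. The female mice thus gave a ratio of 0.709 (0.567 to 0.886), and the male mice one of 0.928 (0.694 to 1.23). By class it was 0.681 (0.466 to 0.986) in CA1 pyramidal neurons, 0.763 (0.518 to 1.12) in CA2/CA3 pyramidal neurons and 0.931 (0.494 to 1.79) in dentate granule neurons. After thinning to 750 UMIs it was 0.983 (0.694 to 1.40) over all kept nuclei, whose median depth was 2518 UMIs in the library labelled MR1 knockout and 3704 UMIs in the 5XFAD library.

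Nfkbia was the only one of the 10 whose interval over all kept nuclei lay above 1. It had 193 UMIs (3.43 CPM) in the library labelled MR1 knockout and 149 UMIs (2.64 CPM) in the 5XFAD library, a ratio of 1.30 (1.04 to 1.62), which trimmed-mean scaling lowered to 1.19 (0.954 to 1.48). Without striatal neurons it was 1.24 (0.997 to 1.56), and over the 9 compared classes 1.18 (0.897 to 1.55). The female mouse of the library labelled MR1 knockout was highest at 3.45 CPM and the female 5XFAD mouse lowest at 2.11 CPM, a ratio of 1.63 (1.18 to 2.29). The male mice had 2.55 and 2.59 CPM, a ratio of 0.985 (0.605 to 1.58). No class had 50 UMIs of Nfkbia, so no class ratio is given for it, or for Tnfaip3.

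The other 7 genes had ratios within 0.968 to 1.11 over all kept nuclei, each with an interval that included 1. Under trimmed-mean scaling the intervals of Nfkb1 (0.841 to 0.931) and Ikbkb (0.840 to 0.961) lay below 1. With total UMIs Nfkb1 was at 0.968 (0.919 to 1.02), Ikbkb at 0.982 (0.918 to 1.05), Tnfaip3 at 0.990 (0.716 to 1.37), Relb and Nfkbiz each at 1.04, Rela at 1.04 (0.892 to 1.22) and Nfkbib at 1.11 (0.950 to 1.29). For Nfkbiz the mice of a library differed more than the libraries, with 8.80 CPM in the female and 15.8 CPM in the male of the library labelled MR1 knockout, and 10.1 CPM in the female and 11.7 CPM in the male of the 5XFAD library. The mice did not yield the same mix of classes from each library; CA1 nuclei, for example, came to 494 from the female and 620 from the male mouse of the library labelled MR1 knockout, with 2122 and 795 dentate granule nuclei.

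**Figure D3:**
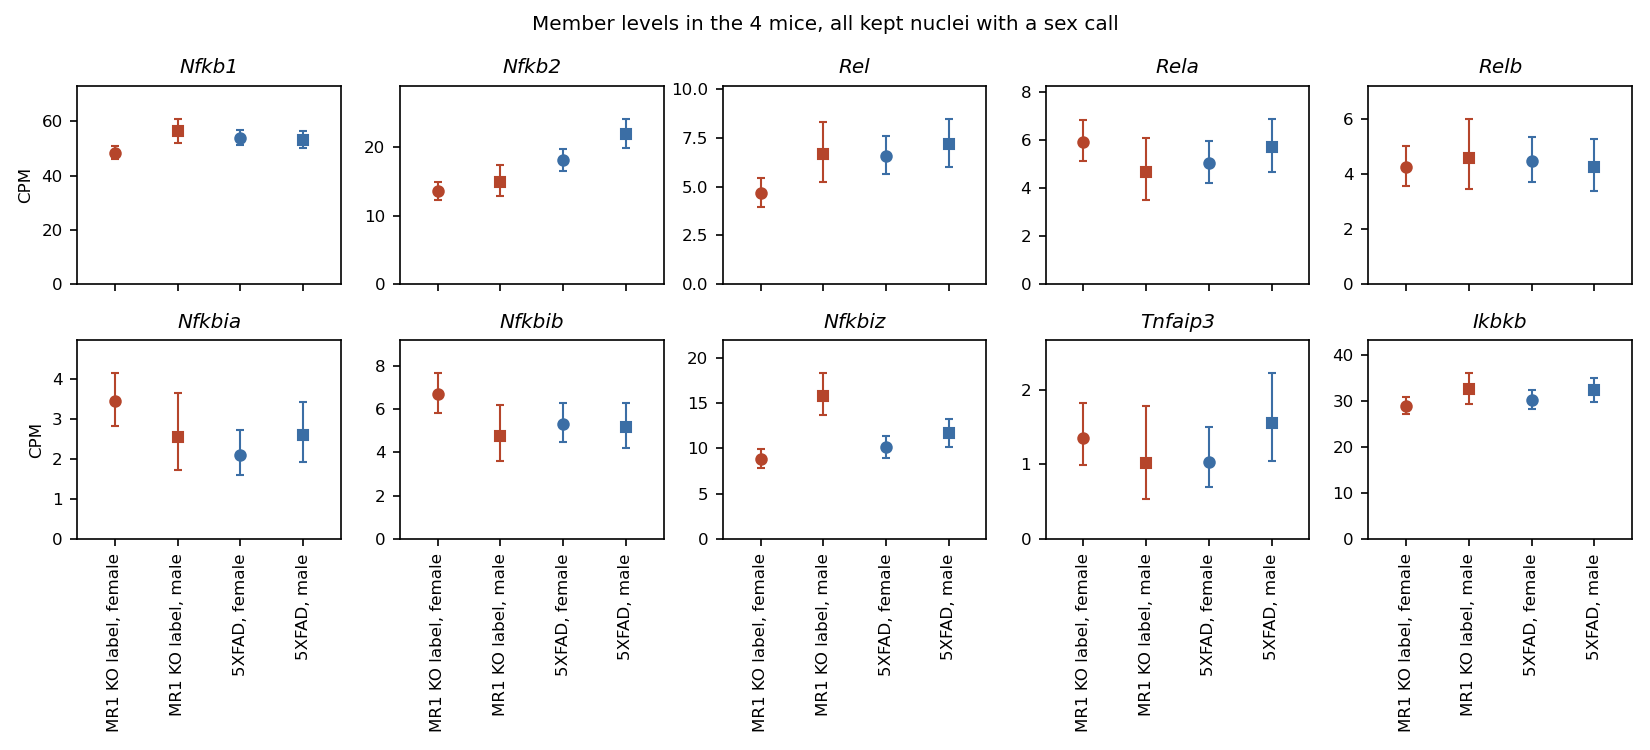
Level of each gene in CPM (vertical axis from 0) in all kept nuclei assigned to each of the 4 mice; red is the library labelled MR1 knockout, blue the 5XFAD library, circles female and squares male mice, and error bars exact Poisson 95% intervals. For Nfkb2 both mice of the library labelled MR1 knockout lie below both 5XFAD mice, while Nfkbiz differs most between the mice of the library labelled MR1 knockout.

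Within the 9 classes, 39 ratios of single genes rested on at least 50 UMIs, and on total UMIs 5 of these passed 1.5-fold, 2 as higher and 3 as lower. The lower ones were Nfkb2 in inhibitory neurons and in oligodendrocytes, given above, and Rel in microglia. The share of all genes past 1.5-fold in these classes ran from 4.39% to 12.8% as higher and from 1.55% to 7.92% as lower. As higher it was 12.8% in dentate granule, 4.78% in CA1, 4.39% in CA2/CA3, 7.96% in subicular or cortical and 6.44% in inhibitory neurons, and 8.75% in astrocytes, 7.72% in oligodendrocytes, 8.61% in precursors and 9.05% in microglia. As lower it was 4.52%, 1.81%, 1.55%, 3.89% and 1.83% in the neurons and 7.92%, 3.29%, 3.68% and 6.06% in the glia, in the same order. With each class weighted by its genes of the 10 tested, these shares came to 7.19% as higher and 2.98% as lower, beside 5.13% and 7.69% of the 39 ratios. Nfkb1 in astrocytes was higher, at 44 UMIs (99.7 CPM) in the library labelled MR1 knockout and 30 UMIs (58.8 CPM) in the 5XFAD library, a ratio of 1.70 (1.04 to 2.79), where 8.75% of genes in astrocytes passed 1.5-fold as higher. It was 2.65 in the female mice (24 and 7 UMIs) and 0.536 in the male mice (2 and 9 UMIs). Nfkbib in dentate granule neurons was higher, at 85 UMIs (9.12 CPM) and 35 UMIs (6.05 CPM), a ratio of 1.51 (1.00 to 2.30), beside 12.8% of genes there. Trimmed-mean scaling shifts log2 ratios in dentate granule neurons by -0.11, which takes Nfkbib below 1.5-fold. In cluster 14 its ratio was 1.55 (0.855 to 2.79) and in cluster 22 it was 0.757 (0.361 to 1.83). Nfkbib overlaps Sirt2 and Ccer2 on the opposite strand.

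Short of 1.5-fold, the interval lay above 1 for Nfkbiz in CA2/CA3 pyramidal neurons, at 186 UMIs (21.5 CPM) and 137 UMIs (16.3 CPM), a ratio of 1.32 (1.05 to 1.66). It also lay above 1 for Ikbkb in CA1 pyramidal neurons, at 241 UMIs (38.4 CPM) and 246 UMIs (30.8 CPM), a ratio of 1.25 (1.04 to 1.5). Both intervals are on total UMIs. Trimmed-mean scaling shifts log2 ratios by -0.097 in CA2/CA3 and by -0.11 in CA1 pyramidal neurons, which puts both lower bounds below 1. Ikbkb overlaps Gm15346 on the opposite strand.

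**Figure D4:**
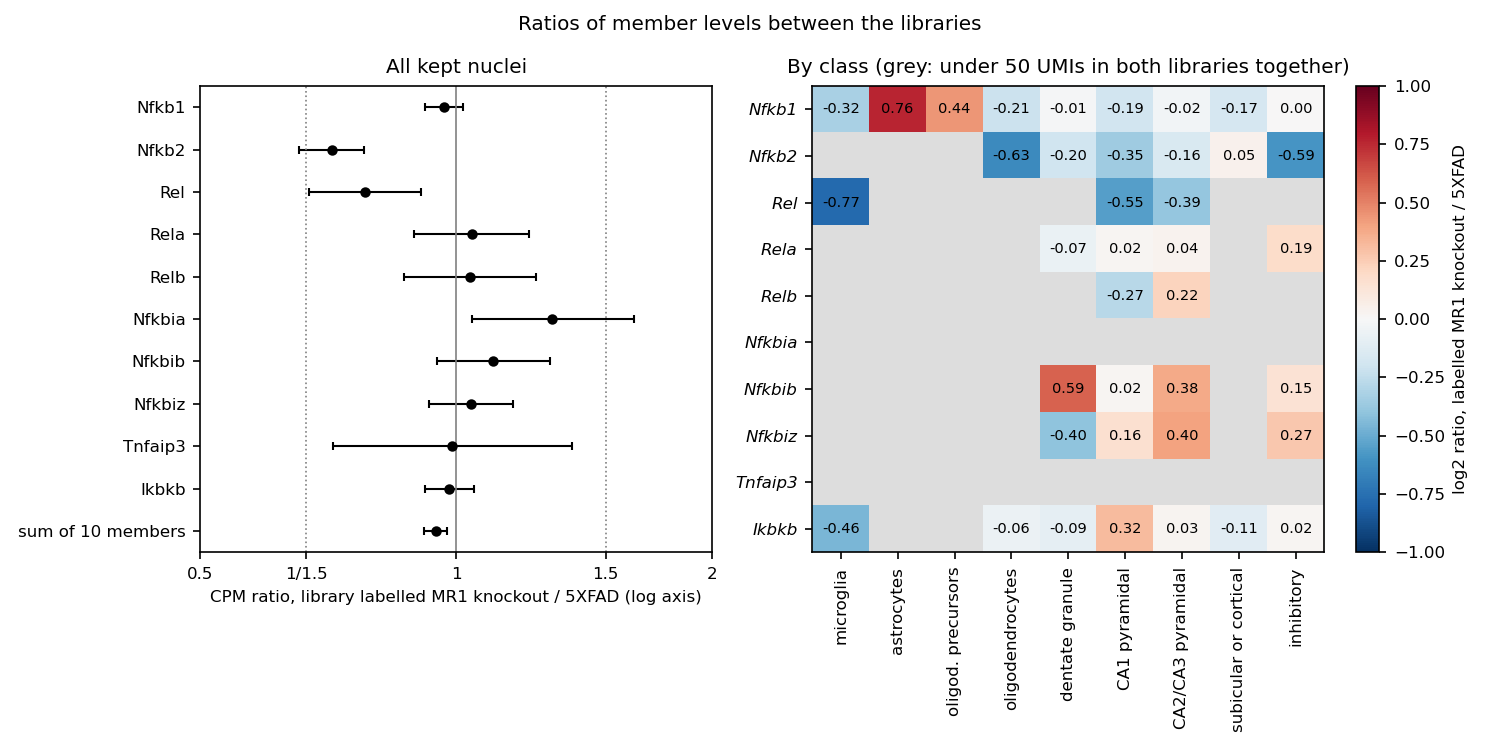
Left, the ratio of CPM in the library labelled MR1 knockout to CPM in the 5XFAD library over all kept nuclei (log axis, points with exact conditional 95% intervals, dotted lines at 1.5-fold); right, log2 ratios by class, red where higher and blue where lower in the library labelled MR1 knockout. Nfkb2 (0.714) and Rel (0.782) have intervals below 1 and Nfkbia (1.30) above it, and no gene passes 1.5-fold over all kept nuclei.

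Microglia made up 748 of the kept nuclei in the library labelled MR1 knockout and 238 in the 5XFAD library, or 4.36% and 1.98%. With no limit on mitochondrial RNA they numbered 960 of 19281 and 694 of 19945 nuclei, so the gap between these shares depended on the filters. In the 748 and 238 microglia the 10 genes summed to 322 UMIs (430 CPM) in the library labelled MR1 knockout and 171 UMIs (516 CPM) in the 5XFAD library, a ratio of 0.833 (0.690 to 1.01). Only Nfkb1, Rel and Ikbkb reached 50 UMIs. Rel passed 1.5-fold as lower, with a ratio of 0.584 (0.348 to 0.991), beside 6.06% of 4804 genes in microglia. Nfkb1 was at 0.80 (0.590 to 1.09) and Ikbkb at 0.727 (0.445 to 1.21). Relb, with 29 and 7 UMIs, was on the other side at 1.83 (0.785 to 4.96). In the female mice the summed ratio was 0.995 (0.745 to 1.34) and that of Rel 0.620 (0.279 to 1.42).

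These microglial ratios rest on a cluster that was set apart from another. A second cluster led by microglial genes, with 400 nuclei in the library labelled MR1 knockout and 217 in the 5XFAD library, was left out because too many of its nuclei held RNA of both sexes. With it counted as microglia the summed ratio was 0.993 and that of Rel 0.933 (0.676 to 1.29). With all left-out clusters kept, microglia numbered 1148 of 17637 nuclei in the library labelled MR1 knockout and 455 of 12302 in the 5XFAD library. With no limit on mitochondrial RNA the ratio of Rel was 1.07 (0.718 to 1.59). Marker RNA of other classes was also read in the microglial nuclei. The 14 astrocyte markers summed to 13364 CPM in the library labelled MR1 knockout and 9000 CPM in the 5XFAD library, with 6 higher and 8 lower and none at 0. The astrocyte list includes Apoe, and the sum cannot tell RNA of other cells from that of the microglia themselves. The 11 choroid plexus markers summed to 3576 and 833 CPM, with 9 higher, 1 lower and Otx2 at 0 in both, and the 13 striatal markers to 509 and 1217 CPM, with all 13 lower. Their part in the ratios was not tested.

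The rest of the pathway was read through 6 lists of genes, from ligands to targets. Over all kept nuclei most of their genes with at least 50 UMIs were somewhat higher in the library labelled MR1 knockout, as were 70.7% of all genes tested, and none was past 1.5-fold lower. Of all genes tested, 8.72% were past 1.5-fold higher and 3.18% past 1.5-fold lower, and the counts past 1.5-fold below stand beside these shares. Under trimmed-mean scaling the higher genes numbered 2 of 5 ligands, 9 of 13 receptors, 15 of 25 adaptors, 6 of 11 genes of the IKK list, 8 of 16 negative regulators and 18 of 23 targets, and 1 receptor passed 1.5-fold as lower. The counts that follow are on total UMIs. Of 5 ligands, 4 were higher, with 1 past 1.5-fold and a median log2 ratio of 0.09. Tnfsf12 (TWEAK), a ligand of the slower branch, had 209 UMIs in the library labelled MR1 knockout and 128 in the 5XFAD library, a ratio of 1.64 (1.31 to 2.06). Of 13 receptors, 10 were higher, 3 of them past 1.5-fold, with a median of 0.28. These were the Toll-like receptors Tlr7 (162 and 88 UMIs, 1.84) and Tlr2 (63 and 32 UMIs, 1.97) and the TNF receptor gene Tnfrsf1b (63 and 33 UMIs, 1.91). Microglia made up 4.36% and 1.98% of the kept nuclei, shares that depended on the filters, as given above. The 20 microglial markers were all higher over all kept nuclei, with a summed ratio of 1.32. The part of the microglial share in these ratios was not tested. Il1rap, the shared chain of interleukin-1 receptors, was lower, with 7937 and 8575 UMIs and a ratio of 0.928 (0.900 to 0.957).

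Of 25 adaptors and ubiquitin ligases, 17 were higher, 3 past 1.5-fold, with a median of 0.20. The share of all genes past 1.5-fold higher was 8.72%. Traf5 had 369 and 189 UMIs, a ratio of 1.96 (1.64 to 2.34). Rnf31, the catalytic subunit of the linear ubiquitin ligase, was at 1.44 and Birc2 (cIAP1) at 1.28. The 11 genes of the IKK complex and its upstream kinases were all higher, with a median of 0.13, beside 0.13 over all genes. Map3k8 was past 1.5-fold at 1.54 (126 and 82 UMIs), and the IKK subunits Ikbkg and Chuk were at 1.18 and 1.11 and the adaptor Tab3 at 1.13. Of 16 other IkB proteins, deubiquitinases and negative regulators, 12 were higher with a median of 0.15. Nlrx1 was past 1.5-fold at 1.66 (177 and 107 UMIs), and Commd1, Tnip2 and N4bp1 were at 1.26, 1.22 and 1.19.

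Of 23 known targets, 19 were higher, 6 of them past 1.5-fold, with a median of 0.30, where 8.72% of all genes were past 1.5-fold higher. The chemokine gene Cxcl10 had 101 UMIs (1.80 CPM) in the library labelled MR1 knockout and 22 UMIs (0.390 CPM) in the 5XFAD library, a ratio of 4.60 (2.88 to 7.67). Irf1 was at 2.05 (1.69 to 2.49), Ccl5 at 2.13 (1.63 to 2.79) and Cxcl16 at 2.08 (1.42 to 3.09). Cxcl10 and Irf1 are also targets of interferon signalling. In microglia, whose share was 4.36% and 1.98%, the same list gave 3 of 8 targets higher and 5 lower, with a median of -0.15, where 51.1% of all genes tested were higher. Cxcl10 had 12 and 2 UMIs there and Irf1 14 and 7, a ratio of 0.885 (0.334 to 2.59).

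In microglia 51.1% of all genes tested were higher in the library labelled MR1 knockout, against 70.7% over all kept nuclei, and the counts of the lists there stand beside that share. Of 5 receptors 4 were higher, with a median of 0.25. The 4 genes of the IKK list with 50 UMIs were all lower, with a median of -0.38, although 4 of 10 were higher at a minimum of 20 UMIs. Of 8 other IkB proteins and negative regulators 5 were lower, and of 8 adaptors 5 were lower, 2 of each past 1.5-fold. In microglia 6.06% of all genes tested were past 1.5-fold lower. Otulin, a linear deubiquitinase, had 180 and 109 UMIs, a ratio of 0.730 (0.573 to 0.935). Malt1, a paracaspase of lymphocyte receptor signalling, had 42 and 35 UMIs, a ratio of 0.531 (0.331 to 0.856), and Traf3, a brake on the slower branch, had 55 and 39 UMIs, a ratio of 0.624 (0.406 to 0.966).

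In dentate granule neurons the receptor list had the lowest summed ratio, at 0.581 (0.555 to 0.607). Il1rap, named here after its values were seen, made up most of it, with 3049 UMIs (327 CPM) in the library labelled MR1 knockout and 3492 UMIs (604 CPM) in the 5XFAD library, a ratio of 0.542 (0.516 to 0.569). Il1r1, named for the same reason, had 181 and 172 UMIs, a ratio of 0.653 (0.527 to 0.809). Of all genes tested in dentate granule neurons, 4.52% were past 1.5-fold lower. Il1r1 is one of the genes that lead cluster 14, which held a smaller share of these neurons in the library labelled MR1 knockout. The part of that share in these ratios was not tested.

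**Figure D5:**
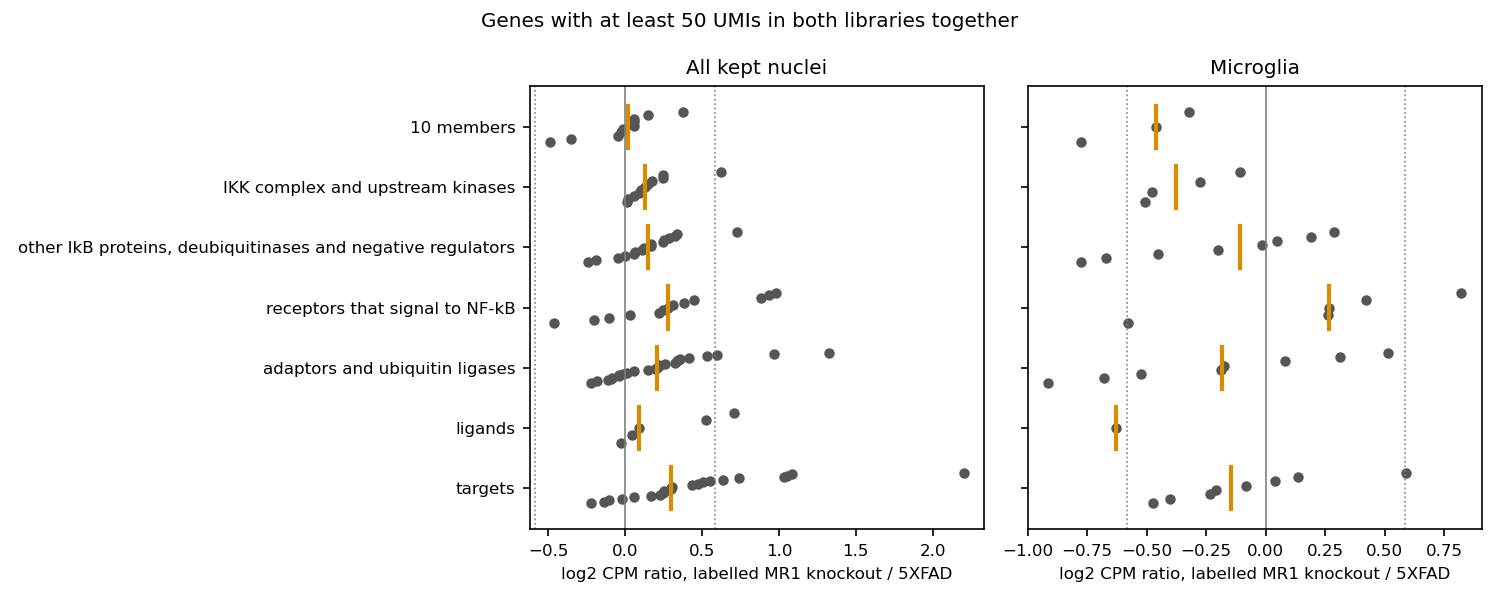
Log2 ratio of CPM, library labelled MR1 knockout over 5XFAD library (horizontal axis), for each gene with at least 50 UMIs over both libraries, in all kept nuclei (left) and in microglia (right); rows are the 10 members and the 6 pathway lists, orange bars are medians and dotted lines mark 1.5-fold. The members' median over all kept nuclei is 0.02 and that of the targets 0.30, while in microglia most lists have a median below 0.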

How the data were processed

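Nuclei of flash-frozen hippocampus (20 mg of tissue a library, 10000 nuclei targeted) were read by 3' droplet sequencing, per the labels' protocols. The authors deposited unnormalized counts of UMIs for each gene in each called barcode. Per the file headers these came from Cell Ranger 7.0.0; mm10 and Seurat stand in the submitters' processing notes without a stated role. Not given in the sources used here are the annotation release, strand setting and intron counting.

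Barcodes with at least 500 genes and under 5% mitochondrial UMIs were kept, 22263 of 26212 in the library labelled MR1 knockout and 15408 of 25238 in the 5XFAD library, with median mitochondrial shares of 1.41% and 3.43%. Scrublet (scanpy 1.11.5) marked 20.8% and 20.2% as doublets at the share expected for 0.8% per 1000 barcodes; its automatic threshold marked 2.65% and 6.43%. Both libraries were clustered together (2500 variable genes, 40 components, 20 neighbours, Leiden at 1.5) into 33 clusters; 20 were named from 22 marker sets, 11 stayed unnamed (29.6% and 30.0% of kept nuclei), and 2 with at least 15% of nuclei holding RNA of both sexes were left out. A nucleus was assigned to the female mouse by 2 or more Xist UMIs without Y-linked ones, and to the male mouse by Y-linked UMIs without Xist. This assigned 8963 female and 3071 male nuclei of 17168 in the library labelled MR1 knockout, and 5288 and 3448 of 12034 in the 5XFAD library. The rest were assigned to no mouse, so levels per mouse describe the assigned nuclei only.

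Sums of UMIs by class within a library, as CPM, carry exact Poisson intervals; ratios have exact conditional binomial intervals and shares exact Clopper-Pearson intervals. A gene was called past 1.5-fold with at least 50 UMIs over both libraries. PCR copies were collapsed by UMI, and intervals and floors (3 counts) cover counting error only. The design planned no test, since each label had 1 library. edgeR 4.0.16 gave the trimmed-mean scaling of an alternative. The calculation was tested on simulated data. The promoter search used RefSeq windows (GRCm38.p6); gene positions came from GENCODE M21.

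The 10 genes and the pathway lists were chosen with earlier results of these data known. By rule, the text names all 10 genes, up to 4 genes a list over all kept nuclei and up to 3 in microglia whose intervals lay farthest from 1, the most alike genes, and Mr1; some genes that the rule names are not reported here; Thy1 and App were read only as a check of the labels. Alternatives were at least 1000 genes, under 1% or no limit of mitochondrial UMIs, no doublet removal, each sex alone, thinning to 750 UMIs, and other scaling.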

Additional observations from a re-analysis of the deposited data

How the results depend on the processing

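No paired analysis was possible because each label had 1 library and no result came from a test. The summed ratio of the 10 genes over all kept nuclei was 0.946 and moved to 0.866 under trimmed-mean scaling, to 0.989 in the male mice alone, to 1.02 after thinning to 750 UMIs and to 0.983 when compared class by class over the 9 classes, a setting chosen after seeing the data; the cause was not tested. In microglia the summed ratio of 0.833 moved to 0.597 in the male mice (46 and 23 nuclei), to 1.08 with no mitochondrial limit and to 1.77 under 1% mitochondrial UMIs, where 53 and 2 nuclei were left. The number of genes past 1.5-fold over all kept nuclei was 0, and 1 with no mitochondrial limit (Nfkb2, 0.549), in the female mice (Nfkbia, 1.63) and under trimmed-mean scaling (Nfkb2, 0.653). Of the pathway lists over all kept nuclei, trimmed-mean scaling moved the number of higher genes to 6 against 11 for the IKK list and to 2 against 4 for the ligands. In microglia a minimum of 20 UMIs, which tests more genes, moved it to 4 against 0 for the IKK list, 8 against 4 for receptors, 5 against 3 for adaptors and for targets, and 2 against 0 for ligands. Among single ratios, Nfkb1 in astrocytes turned to 0.536 in the male mice and Rel in microglia to 1.07 with no mitochondrial limit. Nfkb2 over all kept nuclei stayed below 1 in each setting, from 0.549 to 0.823, and Rel from 0.715 to 0.983. Nfkb1, Rel, Relb, Nfkbiz, Tnfaip3 and Ikbkb had their highest level in microglia in each of the 5 settings read for this, and Nfkb2, Rela, Nfkbia and Nfkbib did not keep their highest class. Depth limits the glial ratios, as 3 of the 10 genes reached 50 UMIs in microglia and in oligodendrocytes and 1 in astrocytes and in oligodendrocyte precursors.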
